A study of Mus musculus with 4 samples.

Results

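Class I molecules of the major histocompatibility complex were followed through 10 genes: the classical heavy chains H2-K1 and H2-D1, the nonclassical heavy chains H2-Q4, H2-Q5, H2-Q6, H2-Q7, H2-T23 and H2-M3, their light chain B2m, and the transactivator Nlrc5. The genes were taken by symbol, and 10 of 10 were found among the 24421 genes listed in each library. The libraries came from 4 mice on a C57BL/6 background. Wild-type animals (Usp25+/+) carried the numbers 139 and 140, and knockout animals (Usp25-/-), which lack the deubiquitinating enzyme Usp25, carried 826 and 850, so that n is 2 per genotype. The labels describe all 4 as female, aged 8 weeks, given water with 2.5% dextran sulfate sodium (DSS), which injures the colon epithelium, over 5 days and plain water over the next 2 days. The tissue named is the distal colon, and no untreated animal was analysed here. The comparison asks how class I transcripts differ between the genotypes under these labels.

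A class I molecule is a membrane-bound heavy chain paired with B2m that holds a short peptide made in the cell and shows it to CD8 T cells and natural killer cells. The peptides are cut by the proteasome, carried into the endoplasmic reticulum by the Tap transporter and loaded there with the help of tapasin. Nearly all nucleated cells carry classical class I molecules, and interferons raise their transcription through IRF factors and through Nlrc5, which acts at a promoter module (SXY) shared by heavy chain genes and B2m. Nonclassical chains have narrower roles: H2-T23 encodes Qa-1, a ligand of NKG2 receptors, H2-Q6 and H2-Q7 encode Qa-2 molecules, and H2-M3 presents N-formylated peptides.

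The libraries did not match every label. Among 13 colon epithelium markers found, 8 stayed under 1 FPKM in every library, Cdx1 and Zg16 were listed at 0 in all 4, and the mucin Muc2 did not exceed 0.193 FPKM. Of the summed colon list (206 to 412 FPKM), most was Car4 (193 to 399 FPKM), an enzyme also known from lung capillaries. Lung epithelium markers were abundant, with summed levels of 2396 to 5463 FPKM, Sftpc among them at 339 to 2596 FPKM. Xist was at most 0.110 FPKM, against 12.7 to 30.3 FPKM for the Y-linked Ddx3y. The values below are therefore given as those of the libraries, by genotype label. The targeted gene did follow the labels, with 38.5 and 16.6 FPKM of Usp25 in 139 and 140 against 2.65 and 1.71 FPKM in 826 and 850. Animal 139 stood apart: its 11 neutrophil markers summed to 42739 FPKM, against 786 to 2207 FPKM in the other 3 libraries.

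The promoters of the heavy chains are shown first, because several of these genes share sites through which interferon, NF-kB and Nlrc5 are known to act. RefSeq windows of 300 bases (GRCm38.p6, 250 before and 50 after the annotated start) were given for 8 of the 10 genes, and for neither H2-Q5 nor Nlrc5. The stretches below run 5′ to 3′ on the gene's own strand. Capitals mark matches to the kappa B site of enhancer A (GGGATTCCC), the interferon-stimulated response element core in either order of its half-sites (GAAANNGAA or GAANNGAAA), the gamma-activated site (TTCNNNGAA), the X2-like site (TGACGC) and the Y box (CCAAT), each read on both strands. The order GAANNGAAA was added after the promoter letters were seen. They lie in the windows chr17:34000298-34000597 (H2-K1, minus strand), chr17:35262844-35263143 (H2-D1, plus), chr17:35379367-35379666 (H2-Q4, plus), chr17:35424600-35424899 (H2-Q6, plus), chr17:35438905-35439204 (H2-Q7, plus), chr17:36032652-36032951 (H2-T23, minus) and chr2:122147437-122147736 (B2m, plus).
H2-K1: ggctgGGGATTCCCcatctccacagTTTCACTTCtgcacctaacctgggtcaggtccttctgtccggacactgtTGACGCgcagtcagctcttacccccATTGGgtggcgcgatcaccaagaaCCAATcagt
H2-D1: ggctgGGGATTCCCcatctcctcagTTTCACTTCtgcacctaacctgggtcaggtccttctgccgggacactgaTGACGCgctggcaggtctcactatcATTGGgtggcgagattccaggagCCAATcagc
H2-Q4: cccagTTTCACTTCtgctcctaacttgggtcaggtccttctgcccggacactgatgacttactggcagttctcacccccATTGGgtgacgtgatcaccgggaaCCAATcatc
H2-Q6: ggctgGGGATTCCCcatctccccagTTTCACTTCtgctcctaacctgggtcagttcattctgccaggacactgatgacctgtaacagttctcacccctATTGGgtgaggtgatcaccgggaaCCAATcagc
H2-Q7: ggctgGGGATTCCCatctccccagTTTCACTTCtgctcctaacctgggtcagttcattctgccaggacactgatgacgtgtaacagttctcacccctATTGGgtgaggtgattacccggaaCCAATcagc
H2-T23: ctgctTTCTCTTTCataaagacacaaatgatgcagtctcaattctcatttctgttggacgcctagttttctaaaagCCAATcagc
B2m: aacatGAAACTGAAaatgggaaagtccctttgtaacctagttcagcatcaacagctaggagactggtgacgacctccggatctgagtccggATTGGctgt

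The classical genes H2-K1 and H2-D1 shared the same series of sites: kappa B, response element, X2-like site and a pair of Y boxes. H2-Q6 and H2-Q7 had that series without an X2-like match, and their windows held an identical run of 67 bases, the longest of any pair. H2-K1 and H2-D1 shared a run of 47 bases. H2-Q4 had no match to the kappa B letters, and its only X2-like match lay 30 bases past the start. H2-T23 and B2m held the response element core in the other order and no kappa B match. H2-M3, whose chr17:37269984-37270283 window is not printed, held a response element, an X2-like site, Y boxes and the only gamma-activated match. The kappa B letters were in 4 of the 8 windows, where 0.37% of 27025 promoters of the same length held them. GAAANNGAA was in 2 of 8 (8.57% of promoters) and GAANNGAAA in 6 of 8 (7.56%). Because GAANNGAAA was added after these windows were read, its 6 of 8 cannot be weighed against the share of all promoters. X2-like matches were in 4 of 8 (7.5% of promoters), Y boxes in 8 of 8 (37.9%) and gamma-activated matches in 1 of 8 (8.47%). A match is a stretch of letters and not a measured site. Only the exact letters were searched, so a site spelled otherwise was not counted, and a missing match does not show a missing site. Ahead of its response element H2-Q4 holds ggggatttccc, outside the printed stretch. B2m holds gggaaagtccc, and H2-Q7 holds tgacgt ahead of its Y boxes.

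**Figure D1:**
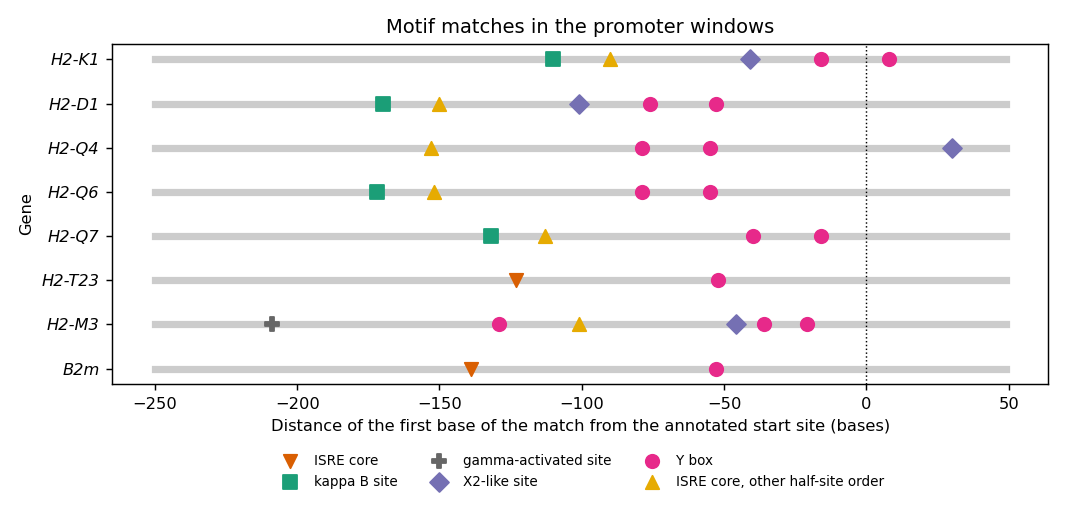
Motif matches in the 8 promoter windows of 300 bases, by distance in bases of the first base of each match from the annotated start site. Grey bars are the windows and each symbol is 1 match. H2-K1, H2-D1, H2-Q6 and H2-Q7 share a kappa B match followed by a response element core and a pair of Y boxes. H2-T23 and B2m have no match to the exact letters searched for the kappa B and X2-like sites.

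The unit FPKM corrects fragment numbers for transcript length and library total, so that genes of different length can be set side by side. B2m was the most abundant of the 10, with 2448 and 2851 FPKM for animals 139 and 140 (Usp25+/+), against 1741 and 2431 FPKM for 826 and 850 (Usp25-/-). It ranked between 16 and 28 among all 24421 genes of its library. H2-D1, H2-K1, H2-T23 and H2-Q4 followed in that order in each of the 4 libraries, with means over all of 1555, 825, 162 and 59.2 FPKM. The ranges of B2m (1741 to 2851 FPKM) and H2-D1 (1252 to 1978 FPKM) overlapped between animals, although B2m was higher in every animal. Below them the order was not fixed, since H2-Q6, H2-M3 and H2-Q7, at means of 23.6, 22.2 and 18.6 FPKM, changed places between libraries. H2-Q5 and Nlrc5 were the lowest by mean, at 9.65 and 5.49 FPKM. Together the 10 genes made up 0.674% to 1.10% of all FPKM.

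**Figure D2:**
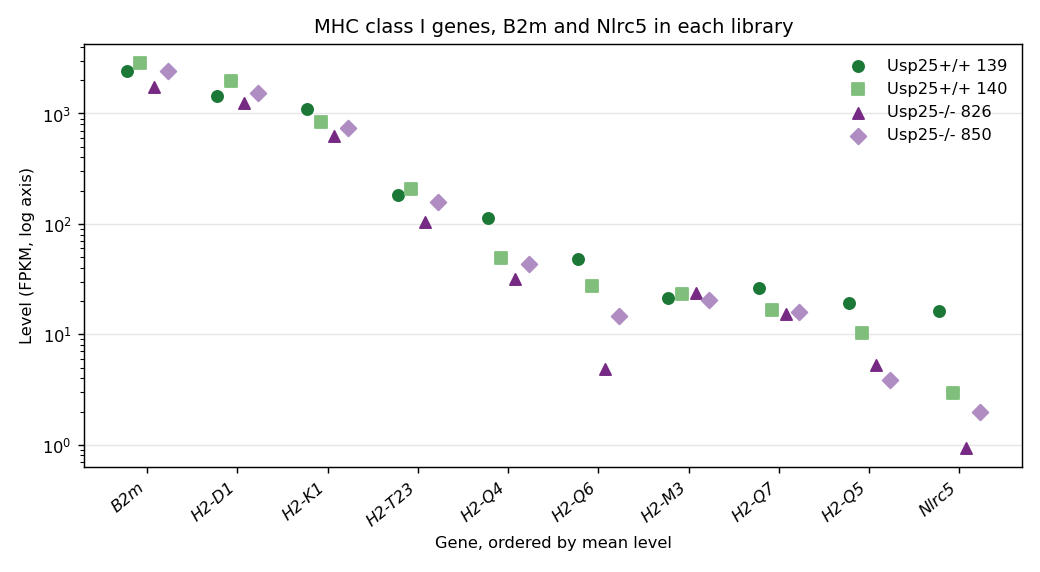
Level in FPKM (log axis) of the 10 genes in each library, ordered by mean level. Symbols are single libraries. B2m, H2-D1, H2-K1, H2-T23 and H2-Q4 keep their order in all 4, and the symbols of Usp25+/+ 139 lie highest for H2-K1, 4 H2-Q genes and Nlrc5.

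All 10 genes had a negative log2 fold change in Usp25-/-, and none passed the test. Differences are on log2(FPKM + 1), Usp25-/- minus Usp25+/+, and were tested with limma. At an adjusted p of 0.05 it called 0 of the 10, and 0 of 12011 genes in all (0%). At an unadjusted p of 0.05 the members were H2-Q5 and H2-Q6, 2 of 10, where 375 of all genes (3.12%) passed. In 8 of 10 both Usp25-/- libraries lay below both Usp25+/+ libraries, where 14.7% of all genes did so, and in 0 of 10 they lay above, where 19% did. The number below depended on scaling: 7 with upper-quartile scaling, 9 with median-of-ratios scaling and 6 with quantile normalization. Of all genes 14.1%, 16.6% and 15.7% lay below in these settings. The median log2 fold change was -0.54 over the 10 genes and 0.03 over all genes, of which 46.5% were negative. Leaving out 139, 140, 826 or 850 gave 9, 8, 9 and 9 of 10 below without overlap, where 37%, 35.3%, 22.7% and 29.1% of all genes did so, since a genotype with 1 library overlaps less often. In bulk RNA, fewer cells of a type and less RNA per cell cannot be told apart.

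Of the classical heavy chains, H2-K1 separated the genotypes and H2-D1 did not. H2-K1 stood at 1092 (139) and 839 (140) against 630.2 (826) and 739 (850) FPKM, and values of other genes follow in the same order of animals. The lowest Usp25+/+ library lay 100.4 FPKM above the highest Usp25-/- library, and the ratio of the means was 0.709. Its log2 fold change was -0.49 (SE 0.38, 95% interval -1.46 to 0.48, limma adjusted p = 0.960), or -0.30 without 139. H2-D1 stood at 1448 and 1978 FPKM against 1252 and 1540.1 FPKM. Here 850 lay above 139, so the genotypes overlapped, and the log2 fold change was -0.28 (SE 0.42). Without 140 it shrank to -0.06, and without 139 it was -0.51. Median-of-ratios scaling was the setting with 4 libraries in which H2-D1 no longer overlapped. The share of the 8 heavy chains' summed FPKM that came from H2-K1 and H2-D1 was 86.1%, 89.5%, 91.0% and 89.9% in 139, 140, 826 and 850. H2-D1 exceeded H2-K1 by 1.33 times in 139 and by 1.99 to 2.36 times in the other 3, so 139 differed from 140 more than the genotypes did.

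The light chain had the narrowest separation relative to its level. B2m of 139 (2448 FPKM) lay 17.2 FPKM above that of 850 (2431 FPKM), while 826 was lowest. Its means were 2650 ± 285 in Usp25+/+ and 2086 ± 488 FPKM in Usp25-/- (SD, n = 2), a log2 fold change of -0.36 (SE 0.44, 95% interval -1.47 to 0.75). It was -0.12 without 826 and -0.60 without 850. Upper-quartile scaling and quantile normalization each made the genotypes overlap. The summed heavy chains over B2m gave 1.20, 1.10, 1.19 and 1.04 in 139, 140, 826 and 850, with means of 1.15 ± 0.0708 and 1.11 ± 0.103 (SD, n = 2). This ratio overlapped between the genotypes.

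The H2-Q genes, which lie side by side on chromosome 17, held the 3 largest differences among the heavy chains, those of H2-Q6, H2-Q5 and H2-Q4. H2-Q6 was listed at 47.6 and 27.1 against 4.89 and 14.6 FPKM, with a ratio of means of 0.261. Its log2 fold change was -1.95 (SE 0.57, 95% interval -3.39 to -0.50, limma adjusted p = 0.960). Library 826 was far below 850, and without 826 the value was -1.24. H2-Q5 was listed at 19.2 and 10.24 against 5.25 and 3.87 FPKM. Its difference of -1.45 on the log2 scale (SE 0.39, limma adjusted p = 0.960) ranged from -1.87 to -1.03 when single libraries were left out. No library of one genotype reached the other, and 139 was highest.

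H2-Q4 and H2-Q7 had smaller differences that rested more on animal 139. H2-Q4 stood at 113 and 48.6 against 31.9 and 43.4 FPKM, so that 140 lay only 5.23 FPKM above 850. Its log2 fold change was -0.98 (SE 0.49), or -0.38 without 139 and -1.57 without 140. H2-Q7 stood at 26.3 and 16.6 against 15.3 and 16.0 FPKM. Only 0.639 FPKM separated the genotypes, and the log2 fold change of -0.40 (SE 0.33) became -0.08 without 139. In both genes 140 resembled the Usp25-/- libraries more than 139.

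Reads of H2-Q copies can be assigned to one another, which makes single rows uncertain. Of the windows of 100 bases in the longest H2-Q7 transcript, 12.6% occurred exactly in a transcript of another gene, and all 166 of these were found in H2-Q6. In H2-Q6, 206 of 1986 windows were shared, and the share was 4.64% in H2-D1, 4.44% in H2-T23 and 2.77% in H2-Q4, with 0% in H2-K1, H2-M3 and B2m. With windows of 50 bases the shares in H2-Q7 and H2-Q6 were 27.0% and 23.2%. Transcripts of H2-Q5, H2-Q8 and H2-Q9 were not used in this count, so the shares are lower limits. The sum of H2-Q4 to H2-Q7 was 206 and 103 against 57.3 and 77.9 FPKM. Because FPKM is per transcript length, this sum still depends in part on how reads were divided. The longest transcripts differ in length, with 2085 bases in H2-Q6 and 1418 in H2-Q7. Entered in place of the 4 rows, the sum differed by -1.11 on the log2 scale (SE 0.45, limma adjusted p = 0.960), and none of the members then passed at an unadjusted p of 0.05.

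A neighbour went the other way and was looked at after its value was seen. H2-Q8, a close copy of H2-Q6, stood at 0.197 and 0.141 against 3.51 and 4.63 FPKM, and its log2 fold change was 2.11 (SE 0.34, limma adjusted p = 0.960). The Usp25+/+ values of H2-Q8 lie under both the pseudocount and the filter of 1 FPKM. It passed that filter only through the Usp25-/- libraries. H2-Q9, a close copy of H2-Q7, was listed at 38.3 and 15.8 against 0 and 13.1 FPKM. Added together, H2-Q6 and H2-Q8 gave 47.8 and 27.3 against 8.40 and 19.3 FPKM, and H2-Q7 and H2-Q9 gave 64.6 and 32.4 against 15.3 and 29.1 FPKM. In both sums the genotypes remained apart, and 826 was lowest. The summed value of all 9 listed H2-Q rows was 278 and 140 against 84.5 and 121 FPKM.

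**Figure D3:**
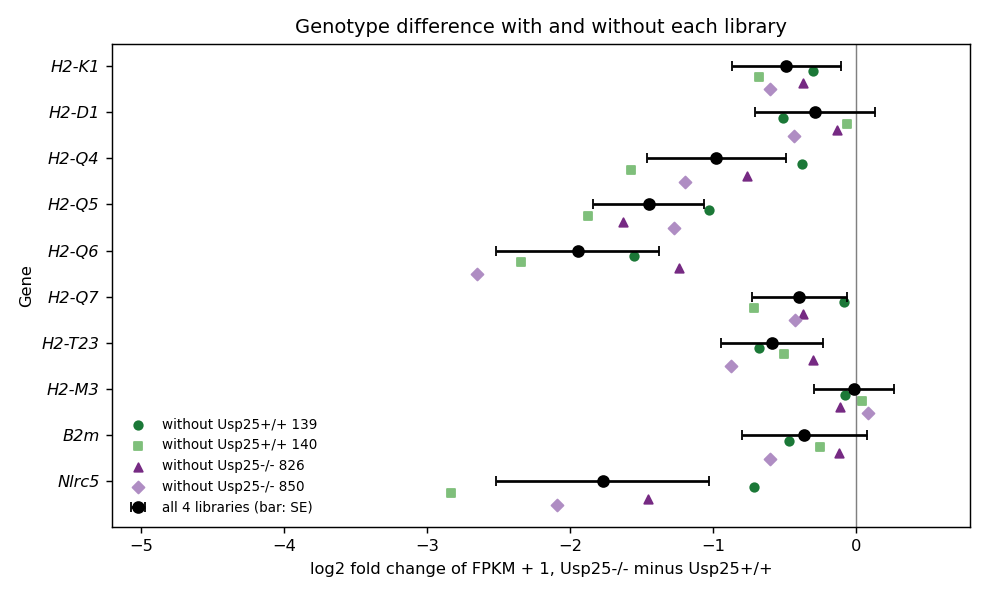
Log2 fold change of FPKM + 1, Usp25-/- minus Usp25+/+, for each of the 10 genes. Black points with SE bars use all 4 libraries, and coloured points leave out 1 library each. The 10 black points lie below 0, from -0.02 for H2-M3 to -1.95 for H2-Q6, and Nlrc5 moves between -2.83 and -0.71 depending on the library left out.

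H2-T23 and H2-M3 lie farther along the complex. H2-T23 stood at 182 and 205 against 105 and 156 FPKM, with 25.5 FPKM between the nearest libraries. It did not follow animal 139, since 140 was highest, and its log2 fold change was -0.59 (SE 0.36, 95% interval -1.49 to 0.32), or -0.68 without 139 and -0.30 without 826. Relative to B2m it stood at 7.42% and 7.19% in Usp25+/+ and at 6.03% and 6.43% in Usp25-/-. Quantile normalization made its genotypes overlap. H2-M3 was the flattest of the 10, at 21.4 and 23.3 against 23.7 and 20.6 FPKM, with a log2 fold change of -0.02 (SE 0.28, 95% interval -0.73 to 0.69). That interval still includes changes of more than 1.5 times in either direction, and the sign turned without 140 (0.04) or 850 (0.08).

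Nlrc5 was low and varied most. It stood at 16.1 and 2.93 against 0.930 and 1.99 FPKM, with 0.945 FPKM between the nearest libraries, 140 and 850. Its log2 fold change was -1.77 (SE 0.74, 95% interval -3.66 to 0.12, limma adjusted p = 0.960), or -0.71 without 139 and -2.83 without 140. A pseudocount of 1 is large against levels near 1 FPKM, and with 0.1 the gene passed at an unadjusted p of 0.05. The annotation used for coordinates lists Nlrc5 as a noncoding RNA on chromosome 8.

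On NCBIM37, the assembly also called mm9, H2-K1 spans positions 34132962 to 34137278 of chromosome 17, H2-D1 35399675 to 35404444, H2-Q4 35516562 to 35522235, H2-Q6 35561795 to 35567000, H2-Q7 35576100 to 35580714, H2-T23 36166718 to 36169800 and H2-M3 37407165 to 37411429. B2m spans 121973422 to 121978819 of chromosome 2. GENCODE vM1 matched 9 of the 10 symbols, all but H2-Q5. H2-K1 and H2-T23 are on the minus strand and the others on the plus strand.

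Genes that cut, carry and load peptides were lower in part. Of 14 such genes 10 had a negative log2 fold change, 7 were lower and 2 higher without overlap (46.5%, 14.7% and 19% of all genes), 0 passed at an adjusted p of 0.05 and the median was -0.67. Those with the largest differences were Tap1, Psmb9, Tap2 and Tapbp. Tap1, which forms the peptide transporter with Tap2, stood at 81.7 and 17.1 against 8.04 and 14.3 FPKM (log2 fold change -1.72, SE 0.77), or -0.63 without 139. Psmb9, an interferon-induced proteasome subunit, stood at 151 and 72.4 against 36.7 and 48.6 FPKM (-1.29, SE 0.45), or -0.77 without 139. Tap2 stood at 51.3 and 31.3 against 13.4 and 22.3 FPKM (-1.17, SE 0.41). Tapbp, which encodes tapasin, stood at 162 and 47.5 against 32.3 and 54.4 FPKM and overlapped. All 10 with a negative value were highest in 139, and without it the median of the 14 was -0.14. Among the general chaperones of the endoplasmic reticulum, Pdia3 (173 and 200.3 against 324 and 277 FPKM) and Canx (81.1 and 62.5 against 83.9 and 91.5 FPKM) lay higher in Usp25-/-. Calr and Hspa5 overlapped, each with a log2 fold change of 0.10.

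The regulators of class I transcription were lower in 17 of 18 (46.5% of all genes), with 11 lower without overlap (14.7% of all genes), 0 called and a median of -0.62. Irf1, which binds the response element, stood at 242 and 78.6 against 30.6 and 46.0 FPKM (-1.85, SE 0.60), and without 139 it was -1.05. Nfya, a subunit of the factor that binds the Y box, was at 18.03 and 14.0 against 1.02 and 11.2 FPKM, the low value being that of 826 alone. Irf9 overlapped, with 140 at 12.4 and 850 at 14.0 FPKM. Of the 18, 13 were highest in 139, and the median without it was -0.34.

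**Figure D4:**
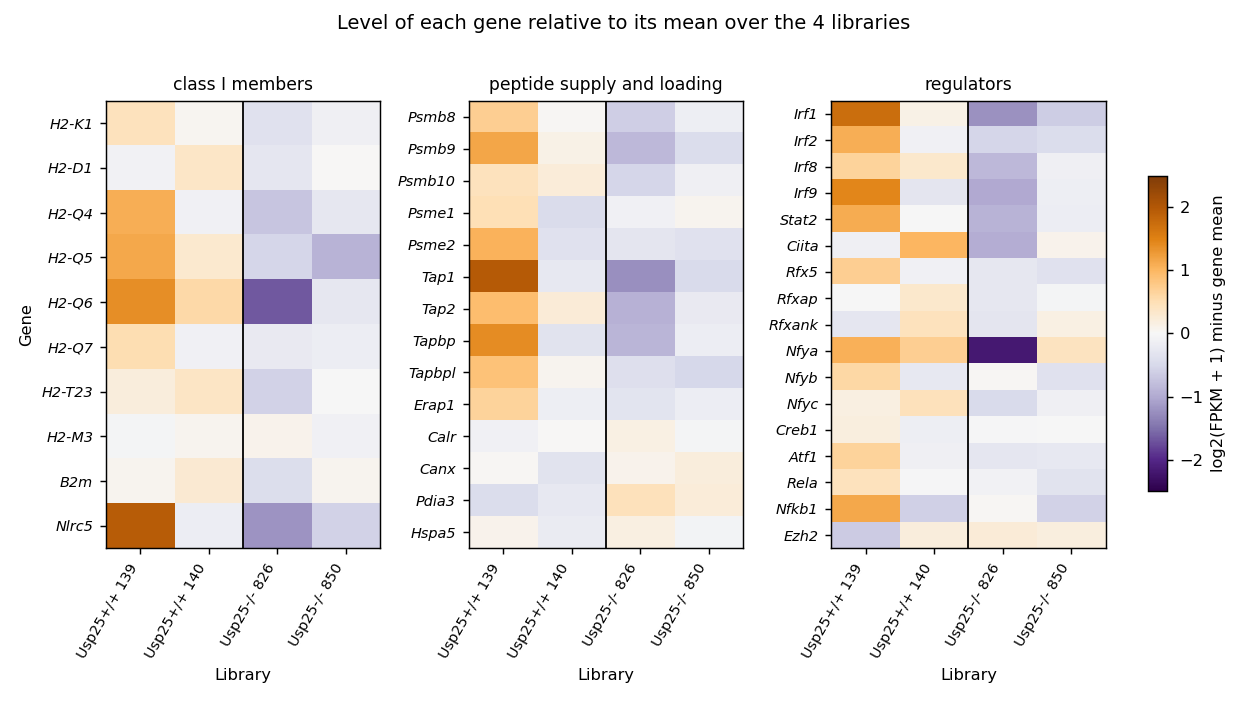
Level of each gene in each library as log2(FPKM + 1) minus its mean over the 4 libraries, for the 10 class I genes, 14 genes of peptide supply and loading and 17 of the 18 regulators. Orange is above and purple below the mean. Usp25+/+ 139 has the highest value for 10 loading genes and most regulators, while H2-D1, H2-T23 and B2m are highest in Usp25+/+ 140.

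Interferons themselves were scarce. Ifng was listed at 8.36 and 0.456 FPKM in 139 and 140 and at 0 in both Usp25-/- libraries, and Ifnl2 and Ifnl3 at 0 in all 4. Of 9 tested interferon and receptor genes 8 were lower, 3 without overlap (46.5% and 14.7% of all genes), with a median of -0.46. Ifng is among the 3, but it passed the filter of 1 FPKM only through 139. Its place in these counts is therefore no support. Jak2, a kinase that associates with cytokine receptors, stood at 66.7 FPKM in 139 and at 9.23 to 11.9 FPKM in the other 3. Without 139, where Ifng was no longer tested, the median was 0.08.

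The other class I and class I-like genes were split. Of 34 listed, 32 were found and 16 were tested, 8 lower (46.5% of all genes) and 8 higher, with a median of -0.22. Without overlap 5 were lower and 2 higher (14.7% and 19% of all genes). H2-T22, a ligand of gamma-delta T cells, stood at 8.38 and 20.9 against 4.45 and 7.05 FPKM (-1.11, SE 0.49), or -0.50 without 140. H2-M2 was at 42.6 FPKM in 139 and at 5.52 to 9.43 FPKM in the other 3. H2-Q9 and H2-Q8 had the largest differences and are described above. A row for H2-L, a gene that C57BL/6 mice are known to lack, held 1.09 to 4.24 FPKM.

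Receptors for class I molecules were mostly low. Of 18 found, 11 reached 1 FPKM in some library and 7 were tested. Of these 5 were lower (46.5% of all genes) and 2 higher, with a median of -0.38. Without overlap 1 was lower and 1 higher (14.7% and 19% of all genes). Cd8a did not exceed 0.849 FPKM. Pirb, an inhibitory receptor of myeloid and B cells that binds class I, had the highest level, at 161 and 138 against 72.3 and 98.1 FPKM (-0.81, SE 0.33), without overlap. Klra3, which encodes a natural killer receptor, was listed at 2.13 and 3.72 against 4.74 and 8.61 FPKM (0.95, SE 0.40), or 0.58 without 850.

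Cell type markers differed between the libraries too. The 6 pan-leukocyte markers were all lower, 2 without overlap (14.7% of all genes), with a median of -0.61, or -0.16 without 139, and summed levels of 2097, 1544, 1162 and 1258 FPKM in 139, 140, 826 and 850, the same order of libraries as for H2-K1. Neutrophil markers (11 of 11 highest in 139) summed to 42739, 786, 2207 and 1295 FPKM, lowest in 140. Macrophage and dendritic cell markers summed to 1018, 1545, 885 and 978 FPKM, and endothelial markers to 110.3, 294, 97.3 and 195 FPKM, both highest in 140 and lowest in 826, as B2m, H2-D1 and H2-T23 were. T and natural killer cell markers summed to 29.8, 85.4, 52.9 and 90.1 FPKM and B cell markers to 11.5, 34.8, 13.4 and 38.4 FPKM, neither lower in both Usp25-/- libraries. Epithelial markers were counted too. Lung epithelium markers summed to 2396, 4567, 5440 and 5463 FPKM. Of 12, 3 were lower in Usp25-/- (46.5% of all genes) and 9 higher. Those higher without overlap numbered 3, not far from the share of all genes (19%). Their median was 0.33, or -0.10 without 139. Of 13 colon epithelium markers found only 3 were tested, too few to describe this epithelium. Of these, 0 were lower (46.5% of all genes) and 3 higher. Lgals4 (7.04 and 9.83 against 70.6 and 28.8 FPKM) and Krt20 (4.31 and 3.11 against 52.4 and 7.35 FPKM) were higher without overlap (19% of all genes). Car4 overlapped. With no filter on low values the colon median was -0.0019. Reference genes had a median of -0.03 over 15. The part of cell composition in the class I differences was not tested.

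Most of the 10 genes were highest in a Usp25+/+ library. In 139 were the highest values of 6 (H2-K1, H2-Q4, H2-Q5, H2-Q6, H2-Q7 and Nlrc5), where 29.9% of all tested genes peaked there, and in 140 those of H2-D1, H2-T23 and B2m (27.2% of all genes). H2-M3 was highest in 826, where 25.4% of all genes peaked. The lowest value of 8 was in 826, where 24.3% of all genes were lowest. Likeness was measured as the Euclidean distance between profiles of log2(FPKM + 1) over the 4 libraries, each centred on its mean. The closest pairs were H2-D1 with B2m (0.222), H2-K1 with H2-Q7 (0.231) and H2-T23 with B2m (0.239). The mean profile of the 8 heavy chains and B2m was 0.52, 0.20, -0.52 and -0.20 in 139, 140, 826 and 850. The nearest of 7775 other genes (tested, mean not under 5 FPKM) were Nek6 (0.0312), Mapre2 (0.0786), Hnrnpul1 (0.0900), Pi4ka (0.0972), Elmsan1 (0.111) and Fes (0.112). Nek6, which encodes a mitotic kinase, was listed at 67.4 and 55.1 against 33.1 and 41.5 FPKM. The distances describe 4 libraries and were not tested.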

How the data were processed

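RNA sequencing values of 4 libraries (2 Usp25+/+, 2 Usp25-/-) were used. Libraries were made from poly(A) RNA, carry no strand information and were read in pairs, per the labels' protocols. The tools in the submitters' processing notes are TopHat2 2.1.1, Cufflinks and cutadapt, and the build is mm9. For annotation and filters, nothing is stated in the sources used here. Values as deposited were taken as FPKM because Cufflinks is named, and no header states the unit. The depth is unknown, so no counting error or detection limit is given. An entry of 0 is reported only as listed at 0. The values summed to 526652 to 565645 per library, and a few abundant genes can lower the rest.

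The members and gene lists were chosen with earlier results of these data known. The test covered the 12011 of 24421 genes whose mean reached 1 FPKM, on log2(FPKM + 1), with limma 3.58.1 in R 4.3.3 (lmFit, eBayes with trend, two-sided, 2 residual degrees of freedom, Benjamini-Hochberg adjustment over all tested genes). The script was tested on simulated data. A pseudocount of 1 understates differences of low genes, and all 10 members passed the filter. The labels number separate animals. Named were the 10 members, Usp25, up to 4 genes of each list with the largest absolute log2 fold change, marker and sex genes that check labels, 6 genes of the nearest profile, and some genes chosen after their values were seen: Canx, Pdia3, H2-Q8, H2-Q9, H2-L, Cd8a, Ifnl2 and Ifnl3. Alternatives were other pseudocounts, filters, scalings and limma settings, summed H2-Q rows and leaving out each library. The sums of H2-Q6 with H2-Q8 and of H2-Q7 with H2-Q9 were chosen after the values were seen. Of the regulators, 1 in the list is counted there and is not reported here by itself.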

Additional observations from a re-analysis of the deposited data

How the results depend on the processing

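No paired analysis was possible because the animal numbers differ between the genotypes. Other pseudocounts, filters, scalings and limma settings, summed H2-Q rows and leaving out 1 library left the log2 fold changes of 9 members negative wherever they were fitted. That of H2-M3 ran from -0.11 to 0.0819 as libraries were left out, above 0 without 140 (0.04) and 850 (0.0819). No member was called by limma in any setting. Members at an unadjusted p of 0.05 numbered 1 without 139, 826 or 850 (5.38%, 0.858% and 3.12% of all genes) and 5 without 140 (21.4% of all genes). With H2-Q rows summed they numbered 0 (3.11% of all genes). In that setting 5 rows were lower without overlap (14.7% of all genes): B2m, H2-K1, H2-T23, Nlrc5 and the summed row. H2-D1 and H2-M3 overlapped. Members higher without overlap numbered 1 without 850, that of H2-M3, where 31.7% of all genes were so. Without 139, 140 or 826 they numbered 0, where 35.8%, 45.6% and 30.1% of all genes were so. The log2 sum of H2-Q4 to H2-Q7 differed by -1.62 to -0.62.

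List medians whose sign depended on a library ranged, over leaving out each in turn, from -0.91 to 0.0764 for interferon genes (positive without 139), -0.44 to 0.0385 for class I receptors (826), -0.30 to 0.54 for T and natural killer cells (negative without 139 or 850), -0.12 to 1.30 for B cells (850), -4.02 to 1.08 for neutrophils (139), -0.50 to 0.12 for macrophages (140), -0.92 to 0.32 for endothelium (140, and 0.12 without 826), -0.10 to 0.49 for lung epithelium (139) and -0.10 to 0.12 for reference genes (139, 140 and 826). With no filter on low values the median was 0.12 for class I receptors and -0.0019 for colon epithelium. The cause was not tested. Precision is limited by 2 libraries per genotype, and the depth is unknown.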
